A study of Mus musculus with 8 samples.

Results

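The genes described here are 10 that carry cytokine signals through gp130, the shared receptor chain encoded by Il6st: the ligands Il6, Lif and Il11, the receptor chains Il6st, Lifr, Osmr, Il6ra and Il11ra1, and the kinases Jak1 and Jak2. They were chosen by symbol, and all 10 were found among the 19041 rows of the deposited count table. The RNA came from immortalised MEFs (mouse embryonic fibroblasts) of Stat3 fl/fl embryos in which Cre, delivered with a Thy1.1 marker by retrovirus, had deleted Stat3. The deleted cells then received a second retrovirus with GFP. It carried WT-Stat3 in the line called -/-WT, and in the line called -/-C3S it carried Stat3-C3S, whose cysteine substitutions make it insensitive to oxidation. Each line was left untreated (basal) or was given 100 µM hydrogen peroxide (peroxide, H2O2) for 2 h, with 2 libraries for each of the 4 groups. All groups therefore shared the floxed alleles, Cre, GFP, growth in serum and passage 15 to 20, and no cytokine was added to any of them. Each form of Stat3 was carried by 1 polyclonal sorted line, so the form of Stat3 and the line cannot be told apart.

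Cytokines of this family are recognised by complexes that contain gp130. Il6 and Il11 first bind a ligand-specific chain, Il6ra or Il11ra1, and then recruit gp130, whereas Lif brings gp130 together with Lifr, and oncostatin M (Osm) can bring gp130 together with Osmr. These chains have no kinase activity of their own, and Jak1, Jak2 and Tyk2, bound to their cytoplasmic parts, phosphorylate the receptor and Stat3. In fibroblasts this pathway is known for inflammatory, repair and fibrotic responses, and Lif is also known for holding mouse stem cells in the pluripotent state.

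The ligands are known as stress and growth-factor responsive genes, so the sequence just before their transcription starts is shown with the motif that all of them held. The sequences are RefSeq promoter windows of build GRCm38.p6, which has the coordinates of mm10. The 250 bases before the start are written 5′ to 3′ on the strand of the gene, with each match to TGANTCA, the element bound by AP-1 (Fos and Jun proteins), in capitals.
Lif (chr11:4257318-4257567, plus strand): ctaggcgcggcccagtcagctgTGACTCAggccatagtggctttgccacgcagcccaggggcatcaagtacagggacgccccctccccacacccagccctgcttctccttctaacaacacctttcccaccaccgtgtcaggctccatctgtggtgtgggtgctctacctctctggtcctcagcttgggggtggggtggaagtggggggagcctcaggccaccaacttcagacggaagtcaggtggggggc
Il11 (chr7:4778142-4778391, minus strand): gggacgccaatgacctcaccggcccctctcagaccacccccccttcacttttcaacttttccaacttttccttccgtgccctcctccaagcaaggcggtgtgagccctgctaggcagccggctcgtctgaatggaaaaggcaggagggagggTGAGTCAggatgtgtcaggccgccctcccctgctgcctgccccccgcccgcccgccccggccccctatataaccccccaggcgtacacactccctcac
Il6 (chr5:30012864-30013113, plus strand): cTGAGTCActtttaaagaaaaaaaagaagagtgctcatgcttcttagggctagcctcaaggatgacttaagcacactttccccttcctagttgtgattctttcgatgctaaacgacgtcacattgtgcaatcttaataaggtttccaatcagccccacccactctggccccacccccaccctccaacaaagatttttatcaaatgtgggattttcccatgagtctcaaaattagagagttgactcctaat

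TGANTCA was searched on both strands and began 228 bases before the start in Lif, 98 bases in Il11 and at the far end of the window in Il6. It was held by 3 of the 10 genes, these ligands, and by 6.75% of the 32841 windows of the same length in the table. A gene counted when any of its windows held the motif, and Il11, Lifr and Il11ra1 had a further listed start. The percentages here count single windows, so the shares are not fully alike. The window before the other listed Il11 start, at position 4782857, held none, and neither did those of the receptor chains and kinases. No window of the 10 genes held TTCNNNGAA, the core to which Stat proteins bind, or TTCCNGGAA, a special case of it. These were in 7.02% and 0.913% of all windows. TGACGTCA, the element bound by Creb and Atf factors, was in Jak1 (1.55% of all windows), ACGTG was in Il6ra (16.6%), and GCGTG was in Jak1, Jak2, Lif and Lifr (28.2%). A match is a description of the letters and not a site of binding, and no match says only that the letters are not in this window.

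The libraries held 17050016 to 22260814 counts each. Stat3 was read in every library, at 7425 to 8835 normalised counts in -/-WT cells and 4650.4 to 5160.5 in -/-C3S cells. No library of cells without Stat3 was among them, so these counts check neither re-expression nor which form was read. The number of genes with a count above 0 was 14867 to 15505 in the basal libraries and 16221 to 17130 in the peroxide libraries. Of 12 fibroblast markers, 11 were in the table and all 11 passed the filter on low counts, with summed levels of 210797 to 276981. Single markers differed in either direction between the basal lines. In basal -/-WT and -/-C3S cells Fn1 averaged 125265 and 55311, Postn 1331 and 289, S100a4 2161 and 7858, and Pdgfra 238 and 535. The summed leukocyte markers (12 of 14 in the table, 6 tested) stood at 129 to 157 normalised counts in basal and 441 to 463 in peroxide -/-WT libraries, and at 61.2 to 79.1 in basal and 252 to 275 in peroxide -/-C3S libraries. In basal and peroxide cells Cd79a averaged 1.03 and 72.3 in -/-WT and 2.27 and 61.2 in -/-C3S, Itgam 0.494 and 42.9 and 1.54 and 65.5, and Itgax 0 and 16.8 and 0.471 and 18.7. Ptprc, which marks all leukocytes, had 0 to 3.33 in every library. Epithelial markers summed to 1197 to 1434 in -/-WT and 984 to 1059 in -/-C3S libraries, a sum led by Krt19 (688 and 972 on average in basal -/-WT and -/-C3S cells). Cdh1 (67.6 and 4.96), Krt8 (153 and 9.66), Krt18 (55.7 and 4.15) and Krt14 (251 and 15.7) had lower means in basal -/-C3S cells, and endothelial markers, mostly Kdr, to 85.0 to 107 and 212 to 248. The part of these in the results below was not tested. In bulk RNA, fewer cells that express a gene and less of its RNA per cell cannot be told apart.

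Levels below are normalised counts, the expected read counts of a gene divided by the size factor of its library. Compared per kb of merged exon, Jak1 (513 ± 11.6, SD, n = 2) and Il6st (439 ± 17.5) stood highest in basal -/-WT cells, followed by Jak2 (261), Lifr (180.4), Osmr (89.7), Lif (67.7), Il11ra1 (41.9), Il11 (9.43), Il6ra (7.91) and Il6 (0.641). The libraries of neighbours in this order did not overlap, other than those of Il11 and Il6ra. Jak1, Il6st and Jak2 thus stood above all ligands and all other receptor chains, and Il6 was close to absent.

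The order changed for the ligands. In -/-WT cells Lif stood at position 6 of 10 at baseline and at position 4 after peroxide, above Lifr, and in -/-C3S cells it went from position 7 to position 4. Il11 went from position 9 to position 6 in -/-C3S cells and stayed at position 8 in -/-WT cells. Osmr went from position 5 to position 8 in -/-C3S cells, where its libraries had overlapped those of Il11ra1 (position 6) at baseline. Jak1, Il6st and Jak2 kept positions 1, 2 and 3 in all 4 groups.

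**Figure D1:**
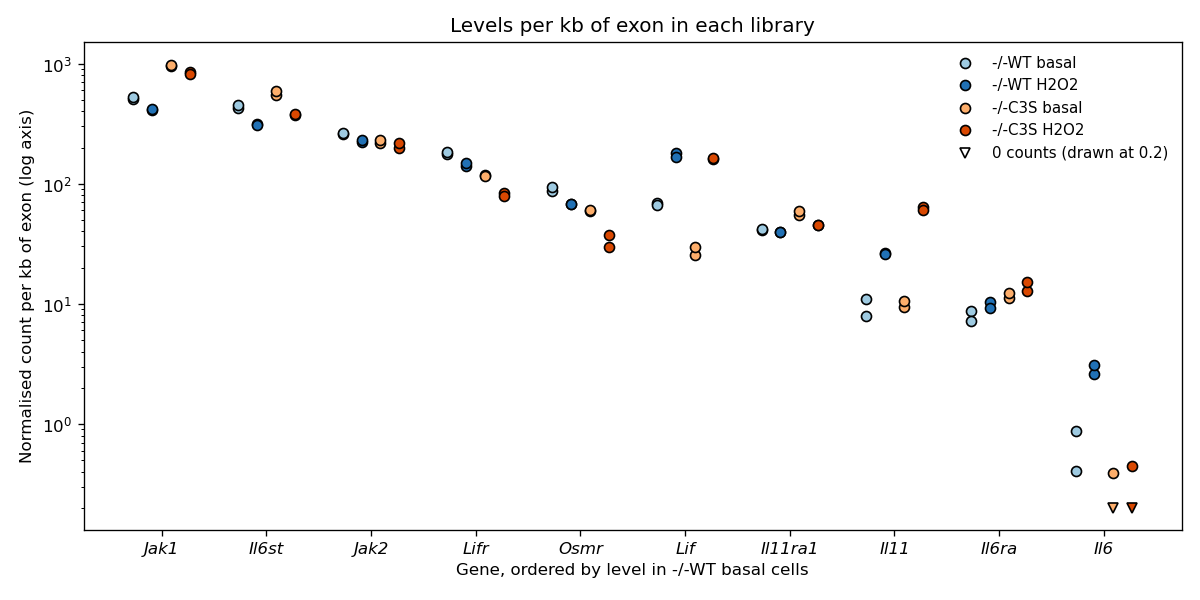
Normalised counts per kb of merged exon (log axis) of the 10 genes in each of the 8 libraries, 1 point per library, coloured by group, with triangles for libraries at 0 counts. Jak1 and Il6st are highest in every group, Il6 is lowest, and the points of Lif and Il11 after peroxide lie above those of the untreated cells.

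Which of these genes responded to peroxide was asked within each line, with the thresholds of the study (adjusted p under 0.05 and a fold change of at least 2). Il6 did not pass the filter, which asked for a mean count of 10 in at least 1 group, so 9 of the 10 genes were tested. In -/-WT cells 2 of the 9, Lif and Il11, rose by this rule, beside 7.59% of all 13538 genes tested, and 0 of the 9 fell, beside 1.77%. By adjusted p alone 2 rose (18.1% of all genes) and 5 fell (26.2%): Il6st, Lifr, Osmr, Jak1 and Jak2. In -/-C3S cells the rule called the same 2 ligands higher (7.17% of all genes) and 0 lower (1.48%), and by adjusted p alone 2 rose (17.2%) and 5 fell (20.8%): Il6st, Lifr, Osmr, Il11ra1 and Jak1. The median log2 fold change of the 9 was -0.20 in -/-WT and -0.23 in -/-C3S cells, beside -0.02 and -0.01 for all genes.

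Lif, the leukaemia inhibitory factor that signals through Lifr and gp130, had 299 and 290.3 normalised counts in basal -/-WT cells and 784 and 731 after peroxide. In -/-C3S cells it had 112 and 129 at baseline and 698 and 710.4 after peroxide. The groups of either line did not overlap, and the lines ended near each other after starting apart. The rise was 2.57-fold in -/-WT cells (log2 1.36, SE 0.08, adjusted p = 4.96e-24, edgeR) and 5.81-fold in -/-C3S cells (log2 2.54, SE 0.10, adjusted p = 2.73e-13, edgeR). The log2 difference between these responses was 1.17 (SE 0.14, adjusted p = 1.74e-07, edgeR interaction term).

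Il11, a gp130 cytokine known for its part in fibrosis and bone turnover, was read at low levels in untreated cells, with 22.9 and 16.4 normalised counts in -/-WT and 19.7 and 21.8 in -/-C3S cells. After peroxide it had 55.5 and 54.0 in -/-WT and 133 and 125 in -/-C3S cells. The basal libraries of the lines overlapped, and all peroxide libraries lay above all basal libraries, highest in -/-C3S cells. It rose 2.81-fold in -/-WT cells (log2 1.49, SE 0.32, adjusted p = 6.03e-05, edgeR) and 6.27-fold in -/-C3S cells (log2 2.65, SE 0.23, adjusted p = 2.45e-08, edgeR). The log2 responses differed by 1.16 (95% interval 0.33 to 1.98), which missed the threshold (adjusted p = 0.0559, edgeR).

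Il6, the cytokine for which the family is named, was read by very few counts and was not tested. The 2 basal -/-WT libraries had 1 and 2 counts, and the peroxide -/-WT libraries had 8 and 9. The basal -/-C3S libraries had 0 and 1, and the peroxide -/-C3S libraries had 1 and 0. Only the peroxide -/-WT libraries stood apart. Their summed counts were 4.50 times those of basal -/-WT cells after scaling (exact 95% interval 1.30 to 24.0, for counting error only), and those of peroxide -/-C3S cells were 0.0797 times those of peroxide -/-WT cells (0.00191 to 0.509). Without the filter, edgeR gave adjusted p = 0.12 for the former and 0.0289 for the latter, and 0.866 for the difference of the responses. The values rest on 1 to 17 counts a group, beside the larger number of genes with any count in the peroxide libraries, whose part was not tested.

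**Figure D2:**
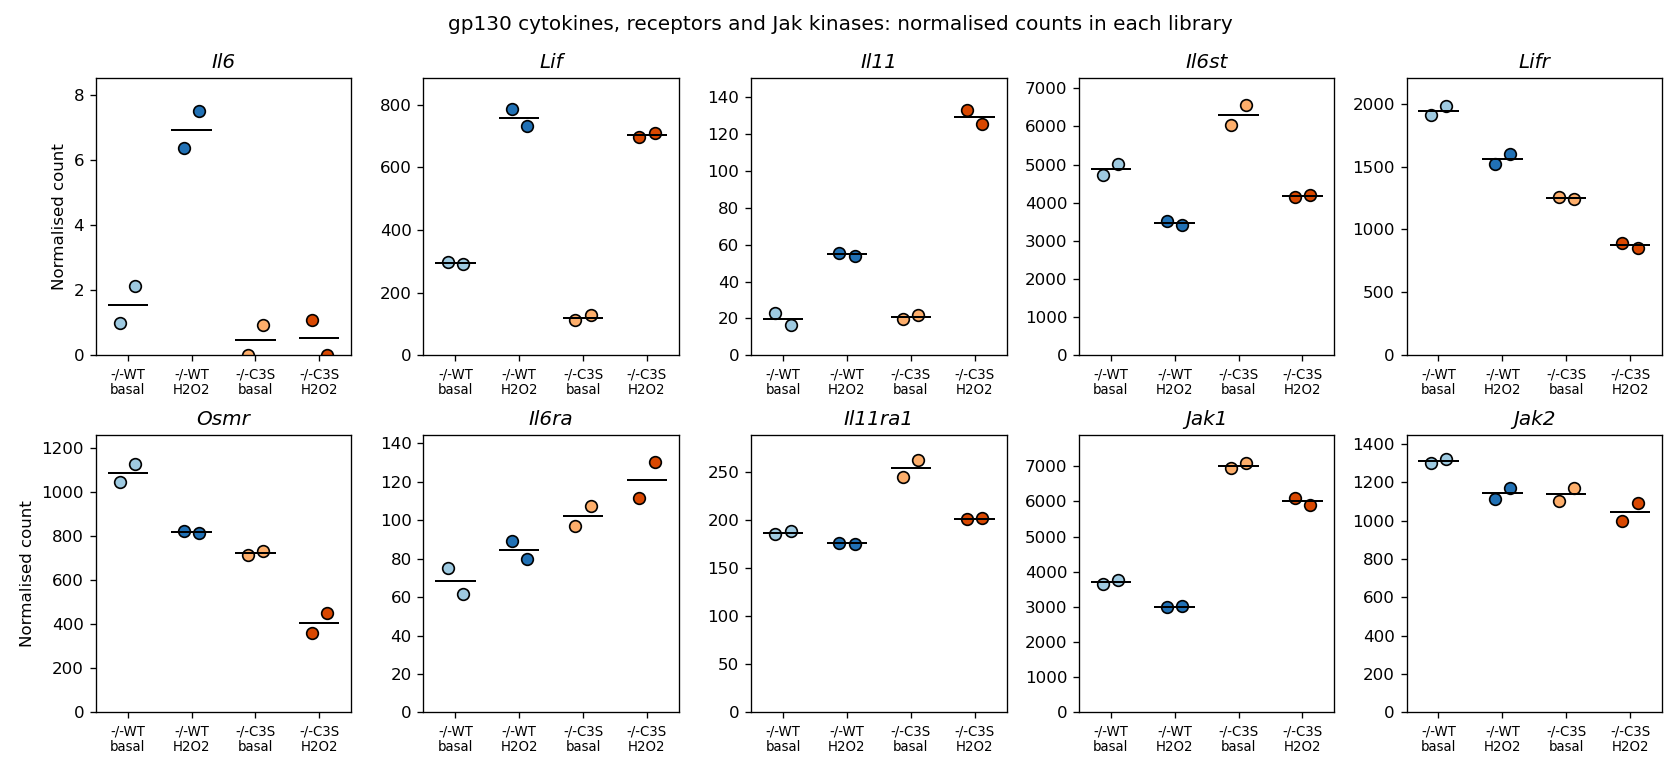
Normalised counts of each of the 10 genes (y axes start at 0 and differ in scale) in the 8 libraries, with 1 point per library and a line at the mean of the 2 libraries of a group. Lif and Il11 are higher after peroxide in both lines, Il6 is higher in the 2 peroxide -/-WT libraries alone, and Lifr and Osmr are lowest in peroxide -/-C3S cells.

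Of the receptor chains, Il6st, Osmr and Lifr fell in both lines. Il6st, which encodes gp130, had 4737 and 5012 normalised counts in basal -/-WT cells and 3513 and 3426 after peroxide, and 6029 and 6563 in basal -/-C3S cells and 4139 and 4190.5 after peroxide. The groups did not overlap, and the peroxide libraries were lower in either line. The log2 fold change was -0.49 (SE 0.04, adjusted p = 5.03e-16) in -/-WT and -0.60 (SE 0.05, adjusted p = 3.34e-09) in -/-C3S cells by edgeR, and the difference of -0.11 missed the threshold (adjusted p = 0.293).

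Osmr, the chain that pairs with gp130 for Osm, had 1047 and 1126 normalised counts in basal -/-WT cells and 824 and 813 after peroxide, and 712 and 732 in basal -/-C3S cells and 363 and 450.0 after peroxide. Both lines were lower after peroxide, with no overlap, and the 2 peroxide -/-C3S libraries were the lowest of all and the most spread. The log2 fold change was -0.41 (SE 0.06, adjusted p = 6.47e-08) in -/-WT and -0.83 (SE 0.09, adjusted p = 3.32e-07) in -/-C3S cells by edgeR. The log2 responses differed by -0.42 (SE 0.11, adjusted p = 0.00661, edgeR). Without peroxide -/-C3S replicate 1, the library at 363, the difference was -0.28 (adjusted p = 0.107), and DESeq2 gave adjusted p = 0.0507 on all libraries, within a range of 0.000596 to 0.107 over the 12 alternatives.

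Lifr, the chain that binds Lif, had 1907 and 1981 normalised counts in basal -/-WT cells and 1523 and 1599 after peroxide, and 1261 and 1241 in basal -/-C3S cells and 893 and 857 after peroxide. It thus fell in the cells in which its ligand rose. The log2 fold change was -0.32 (SE 0.05, adjusted p = 3.99e-07) in -/-WT and -0.51 (SE 0.06, adjusted p = 8.22e-07) in -/-C3S cells by edgeR. The difference of -0.20 missed the threshold (adjusted p = 0.0938), and with TMM scaling it passed (-0.24, adjusted p = 0.0392, the lowest of 12 alternatives that reached up to 0.289).

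Il11ra1, which binds Il11, had 186 and 189 normalised counts in basal -/-WT cells and 177 and 176 after peroxide, with a log2 fold change of -0.09 (95% interval -0.35 to 0.18, adjusted p = 0.627, edgeR). In -/-C3S cells it had 246 and 263 at baseline and 201 and 202 after peroxide, a log2 fold change of -0.34 (SE 0.12, adjusted p = 0.0297, edgeR). The value no longer passed the adjusted p threshold when any 1 of the 4 libraries was left out (adjusted p 0.0558 to 0.203) and with DESeq2 (0.263). Il6ra, which binds Il6, had 75.1 and 61.6 in basal -/-WT cells against 88.9 and 80.0 after peroxide, and 97.1 and 107 in basal -/-C3S cells against 111 and 130.0. Its log2 fold changes of 0.30 (95% interval -0.11 to 0.71, adjusted p = 0.238) and 0.23 (-0.12 to 0.59, adjusted p = 0.302) did not pass edgeR.

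The kinases were lower after peroxide by small amounts. Jak1, the main kinase of gp130 signalling, had 3650.5 and 3769 normalised counts in basal -/-WT cells and 2983 and 3031 after peroxide, and 6944 and 7086 in basal -/-C3S cells and 6108 and 5887 after peroxide. Per kb of exon it was the highest of the 10 genes in all 4 groups, and by counts not scaled for length in -/-C3S cells alone. The groups did not overlap. The log2 fold change was -0.30 (SE 0.05, adjusted p = 3.43e-08) in -/-WT and -0.23 (SE 0.04, adjusted p = 0.000198) in -/-C3S cells by edgeR. Jak2, which also serves growth hormone and erythropoietin receptors, had 1301 and 1321 against 1114 and 1169 in -/-WT cells, and 1102 and 1172 against 999 and 1091 in -/-C3S cells. In -/-WT cells it fell, with a log2 fold change of -0.20 (SE 0.06, adjusted p = 0.0026, edgeR), and did not pass with DESeq2 (adjusted p = 0.121) or without peroxide -/-WT replicate 1 (0.0864). In -/-C3S cells the value was -0.12 (95% interval -0.25 to 0.01, adjusted p = 0.128, edgeR), and it passed without peroxide -/-C3S replicate 2 (-0.19, adjusted p = 0.0314).

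For the difference between the responses of the lines, 1 of the 9 genes was called higher in -/-C3S cells (Lif, beside 0.997% of all genes) and 0 lower (0.406%). By adjusted p alone the counts were 1 higher (9.18%) and 1 lower (Osmr, 3.35%). The interaction values of Il6ra (-0.07), Il11ra1 (-0.25), Jak1 (0.08) and Jak2 (0.08) did not pass, with adjusted p of 0.912, 0.384, 0.447 and 0.625 by edgeR.

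**Figure D3:**
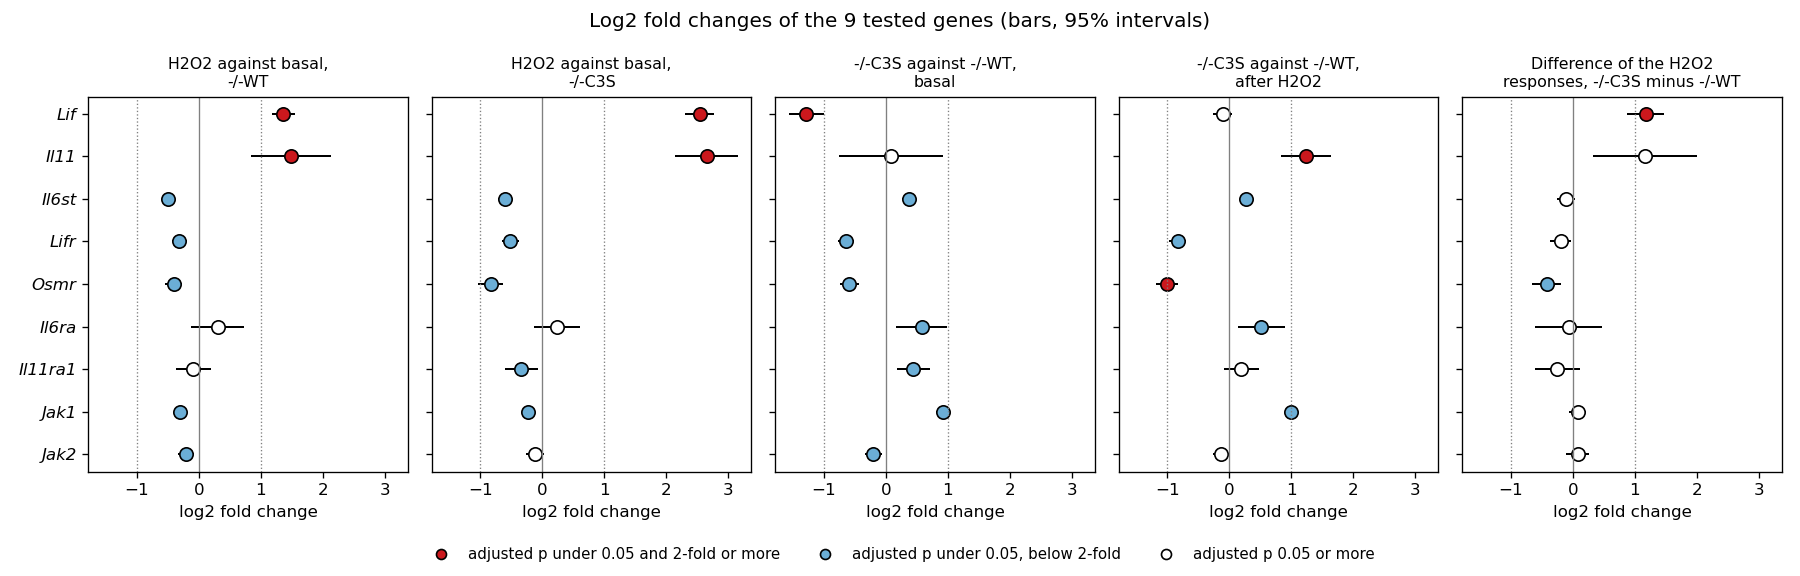
Log2 fold changes with 95% intervals of the 9 tested genes in the 4 comparisons and in the difference between the peroxide responses, with dotted lines at 2-fold and the fill of a point showing which thresholds it passed. Lif and Il11 are past 2-fold in both lines after peroxide, and the receptor chains and kinases lie between -0.83 and 0.30 there.

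How the lines differed without added oxidant was the next comparison. It shares its basal libraries with the peroxide comparisons above, so the values are not independent of them. Of the 9 genes, 0 were called higher in -/-C3S than in -/-WT cells (6.07% of all genes) and 1, Lif, was called lower (9.37%). By adjusted p alone 4 were higher (28.5% of all genes), namely Jak1, Il6ra, Il11ra1 and Il6st, and 4 were lower (28.7%), namely Lif, Lifr, Osmr and Jak2. Stat3 itself was lower in -/-C3S cells (log2 -0.76, SE 0.05, adjusted p = 1.71e-21, edgeR), and its part in these differences was not tested.

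Lif averaged 294 ± 5.81 normalised counts (SD, n = 2) in basal -/-WT and 120.2 ± 12.3 in basal -/-C3S cells, 2.43-fold lower (log2 -1.28, SE 0.13, adjusted p = 2.3e-12, edgeR). Its receptor chain Lifr was also lower, at 1944 ± 52.3 against 1251 ± 14.8 (log2 -0.64, SE 0.06, adjusted p = 1.03e-14, edgeR), and so was Osmr, at 1086 ± 55.3 against 722 ± 14.1 (log2 -0.59, SE 0.07, adjusted p = 4.52e-11, edgeR). Ligand and both partner chains of gp130 were thus lower in the same line, while gp130 itself was higher. Il6st averaged 4874 ± 194 in -/-WT and 6296 ± 377 in -/-C3S cells (log2 0.37, SE 0.05, adjusted p = 2.3e-09, edgeR).

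Jak1 had the largest positive difference of the 9 genes, at 3709.8 ± 84.0 normalised counts against 7015 ± 100.1 in -/-C3S cells, just under 2-fold (log2 0.92, SE 0.05, adjusted p = 2.13e-24, edgeR). Jak2 was slightly lower, at 1311 ± 13.96 against 1137 ± 49.3 (log2 -0.20, SE 0.06, adjusted p = 0.00292, edgeR), and did not pass without basal -/-C3S replicate 1 (adjusted p = 0.0768). The kinases therefore differed in opposite directions. Il6ra averaged 68.4 ± 9.51 against 102 ± 7.19 (log2 0.58, SE 0.20, adjusted p = 0.00958, edgeR), and did not pass with DESeq2 (0.134) or without basal -/-WT replicate 2 (0.0786) or basal -/-C3S replicate 2 (0.115). Il11ra1 averaged 187 ± 2.53 against 254 ± 12.3 (log2 0.44, SE 0.12, adjusted p = 0.00182, edgeR), and DESeq2 gave adjusted p = 0.0571. Il11 did not pass, at 19.6 ± 4.61 against 20.8 ± 1.497 (log2 0.08, 95% interval -0.74 to 0.90, adjusted p = 0.889, edgeR).

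After peroxide, 1 of the 9 genes was called higher in -/-C3S cells (Il11, beside 7.83% of all genes) and 1 lower (Osmr, beside 10.6%). By adjusted p alone 4 were higher (32.5% of all genes), namely Il11, Jak1, Il6ra and Il6st, and 2 were lower (31.9%), namely Osmr and Lifr. These libraries are the peroxide libraries of the responses above.

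Il11 averaged 54.8 ± 1.02 normalised counts (SD, n = 2) in peroxide -/-WT and 129 ± 5.42 in peroxide -/-C3S cells, 2.36-fold higher (log2 1.24, SE 0.19, adjusted p = 1.58e-07, edgeR). Lif, called in untreated cells, averaged 757 ± 37.9 and 704 ± 8.96, and its log2 difference of -0.11 (95% interval -0.24 to 0.03, adjusted p = 0.175) did not pass edgeR. Of the 2 ligands tested, Lif was thus called between the lines before and Il11 after peroxide, and the counts of the untested Il6 are given above.

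Osmr averaged 818 ± 7.76 in peroxide -/-WT and 406 ± 61.9 in peroxide -/-C3S cells, 2.02-fold lower (log2 -1.01, SE 0.08, adjusted p = 3.9e-16, edgeR). It stood just past the 2-fold line and fell inside it without peroxide -/-C3S replicate 1 (log2 -0.86). Jak1 stood just inside it, at 3007 ± 34.6 against 5998 ± 156 (log2 0.996, SE 0.04, adjusted p = 1.68e-30, edgeR), and was called with DESeq2 and without peroxide -/-WT replicate 2 or peroxide -/-C3S replicate 2. Lifr averaged 1561 ± 53.8 against 875 ± 25.5 (log2 -0.83, SE 0.06, adjusted p = 3.18e-19, edgeR).

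Il6st averaged 3469.7 ± 61.4 in peroxide -/-WT and 4165 ± 36.3 in peroxide -/-C3S cells (log2 0.26, SE 0.04, adjusted p = 5.37e-08, edgeR). Il6ra averaged 84.5 ± 6.30 against 121 ± 13.2 (log2 0.51, SE 0.18, adjusted p = 0.0111, edgeR), and did not pass with DESeq2 (0.103) or without peroxide -/-WT replicate 2 (0.103) or peroxide -/-C3S replicate 2 (0.115). Both chains were thus higher in -/-C3S cells. Il11ra1 (176 ± 0.732 against 202 ± 0.652, log2 0.19, adjusted p = 0.198) and Jak2 (1142 ± 38.3 against 1045 ± 65.1, log2 -0.13, adjusted p = 0.0575) did not pass edgeR. Jak2 passed without peroxide -/-C3S replicate 2 (log2 -0.19, adjusted p = 0.0117).

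Some members could share reads with other genes, because the sources used here do not say whether counting used the strand of the read. On the GENCODE annotation of GRCm38, the longest span of Il11ra1 (chr4:41699989-41769474) overlaps other genes, among them Dctn3 and Rpp25l on the other strand and Galt on its own, which had 306 to 350.1, 150 to 189 and 80.0 to 114 normalised counts. Its near-identical copy Il11ra2 had at most 1.45 normalised counts in any library. Jak1 (chr4:101152367-101265282) overlaps Raver2 on the other strand, with 1.88 to 11.1 normalised counts, and Il6ra overlaps an antisense gene that was not analysed here. Lifr (chr15:7090614-7197489, plus strand) and Osmr (chr15:6813577-6874969, minus strand) lie near each other and do not overlap. Lif (chr11:4257557-4272514), Il11 (chr7:4772373-4782859), Il6 (chr5:30013114-30019981), Il6st (chr13:112464070-112510086) and Jak2 (chr19:29251828-29313080) overlap no annotated gene.

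The rest of the pathway was read from lists of related genes. Of 10 other ligands of the family, 9 were in the table and 5 were tested. In either line 1 rose past 2-fold and 0 fell. Of all genes, 7.59% were called higher and 1.77% lower in -/-WT, and 7.17% and 1.48% in -/-C3S cells. The medians of the ligands were -0.09 in -/-WT and -0.18 in -/-C3S cells on the log2 scale. The gene that rose was Il31, a cytokine known from itch that signals through Osmr and Il31ra. It had 0 counts in all 4 basal libraries, 13 and 12 in peroxide -/-WT cells and 6 and 8 in peroxide -/-C3S cells. Against a floor of 3 counts over the basal group, it stood 6.61-fold higher in -/-WT cells (adjusted p = 0.000227, edgeR). In -/-C3S cells it stood 4.87-fold higher (adjusted p = 0.00657, edgeR). Il31 passed the filter on low counts only through the peroxide -/-WT libraries. Being tested thus depended on its rise, and these p-values are no separate support for it. Il31ra had 0 to 3.95 normalised counts in every library. Osm, the other ligand of Osmr, was too low to be tested, with 0 counts in all basal libraries, 2 and 2 in peroxide -/-WT cells and 3 and 8 in peroxide -/-C3S cells. On the same floor it stood 3.83-fold higher in -/-C3S and 1.06-fold higher in -/-WT cells. These ratios to a floor leave out the counting error of the peroxide groups, so they are no lower bounds. More genes had any count in the peroxide libraries, as given above, and the part of this in such low counts was not tested.

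Among 4 other receptor chains, 2 were tested and Il27ra, which pairs with gp130 for interleukin 27, was lower in -/-C3S cells. It had 38.5 and 38.3 normalised counts in basal -/-WT against 7.19 and 4.71 in basal -/-C3S cells, and 41.3 and 40.0 against 1.09 and 8.89 after peroxide. The log2 differences were -2.70 (SE 0.46, adjusted p = 1.2e-06) and -3.00 (SE 0.50, adjusted p = 7.13e-07) by edgeR, and peroxide changed it in neither line by the test. Il27ra passed the filter on low counts only through the -/-WT libraries, so its tests between the lines were not independent of the difference. Of all genes, 9.37% were called lower in -/-C3S cells at baseline and 10.6% after peroxide. Neither of the other kinases, Jak3 and Tyk2, was called in any of the comparisons. By adjusted p alone Tyk2 was lower in basal -/-C3S cells (log2 -0.33) and Jak3 was lower in peroxide -/-C3S cells (log2 -0.74).

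All 19 adaptors, phosphatases, sheddases and inhibitors of the pathway were tested. In -/-WT cells 1 rose past 2-fold (7.59% of all genes) and 0 fell (1.77%) after peroxide. By adjusted p alone 1 rose (18.1%) and 11 fell (26.2%), with a median log2 fold change of -0.14. In -/-C3S cells 0 were called higher (7.17%) or lower (1.48%). By adjusted p alone 2 rose (17.2%) and 6 fell (20.8%), with a median of -0.03. The called gene was Ptpn6, the phosphatase Shp1 that dampens cytokine signals, at 37.5 and 30.8 normalised counts in basal and 97.6 and 80.8 in peroxide -/-WT cells (log2 1.38, SE 0.24, adjusted p = 1.69e-06, edgeR). In -/-C3S cells it had 26.4 and 1.88 at baseline and 36.0 and 31.1 after peroxide, a log2 fold change of similar size that did not pass (1.37, SE 0.69, adjusted p = 0.161, edgeR), and no difference between the responses was called. It was also lower in -/-C3S than in -/-WT cells after peroxide (log2 -1.41, SE 0.25, adjusted p = 1.64e-06, edgeR).

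Of Stat3 and 8 genes of its cytokine feedback, 1 rose and 2 fell past 2-fold in peroxide -/-WT cells (7.59% and 1.77% of all genes). In peroxide -/-C3S cells 2 rose and 1 fell (7.17% and 1.48% of all genes). The median log2 fold changes of this list were -0.16 in -/-WT and -0.04 in -/-C3S cells. Socs3, the inhibitor that gp130 signals induce and that binds gp130, had 917 and 818 normalised counts in basal -/-WT cells and 277 and 248 after peroxide, and 333 and 309.6 in basal -/-C3S cells and 310.1 and 313 after peroxide. It fell in -/-WT cells (log2 -1.72, SE 0.08, adjusted p = 8.2e-30, edgeR) and the response differed between the lines (log2 1.68, SE 0.13, adjusted p = 3.1e-11, edgeR). The kinase gene Pim1 rose in -/-C3S cells alone by the call (log2 1.59, SE 0.07, adjusted p = 1.26e-12), and its response also differed between the lines (log2 1.47, SE 0.11, adjusted p = 9.85e-12, edgeR). Junb rose in both lines (log2 1.86 and 1.88), Fos fell in -/-WT (log2 -1.14) and Socs1 in -/-C3S cells (log2 -1.14). Between the lines, Bcl3 was lower in -/-C3S cells before and after peroxide (log2 -2.09 and -2.07), Socs1 was higher (1.57) and Socs3 lower (-1.44) at baseline, and after peroxide Pim1 was higher (1.19).

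Of 29 chains of other receptors that couple to Jak1 or Jak2, 27 were in the table and 20 were tested. The list is by receptor, so a chain in it need not bind these kinases itself. Peroxide called 0 in -/-WT cells and 2 higher in -/-C3S cells, Il5ra (log2 1.73, adjusted p = 0.0107) and Il12rb1 (log2 1.54, adjusted p = 0.0337), both at or below 32.3 normalised counts in every library. Of all genes, 7.59% were called higher and 1.77% lower in -/-WT cells, and 7.17% and 1.48% in -/-C3S cells. The median of the 20 was 0.01 in -/-WT and -0.08 in -/-C3S cells. Between the lines 1 was called higher and 5 lower in basal -/-C3S cells, beside 6.07% and 9.37% of all 13538 genes. After peroxide 2 were called higher and 6 lower, beside 7.83% and 10.6% of all genes. The epithelial markers named above, other than Krt19, also had lower means in -/-C3S cells, and their part here was not tested. The lower ones were led at baseline by Il22ra1 (log2 -4.88, SE 0.11), Ifnlr1 (-3.60, SE 0.29) and Csf2ra (-1.98, SE 0.37). After peroxide they were led by Ifnlr1 (-4.55, SE 0.28), Il22ra1 (-4.27, SE 0.13) and Epor (-2.75, SE 0.76). Epor rested on 16 and 22 counts in peroxide -/-WT against 4 and 0 in peroxide -/-C3S libraries. It passed the filter on low counts only through the former, so its test was not independent of the difference. Ifnlr1 passed only through the -/-WT libraries, and the same holds for its tests. The median log2 difference of the 20 receptor chains was -0.57 at baseline and -0.36 after peroxide, while that of all genes tested was within 0.02 of 0 in either case.

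**Figure D4:**
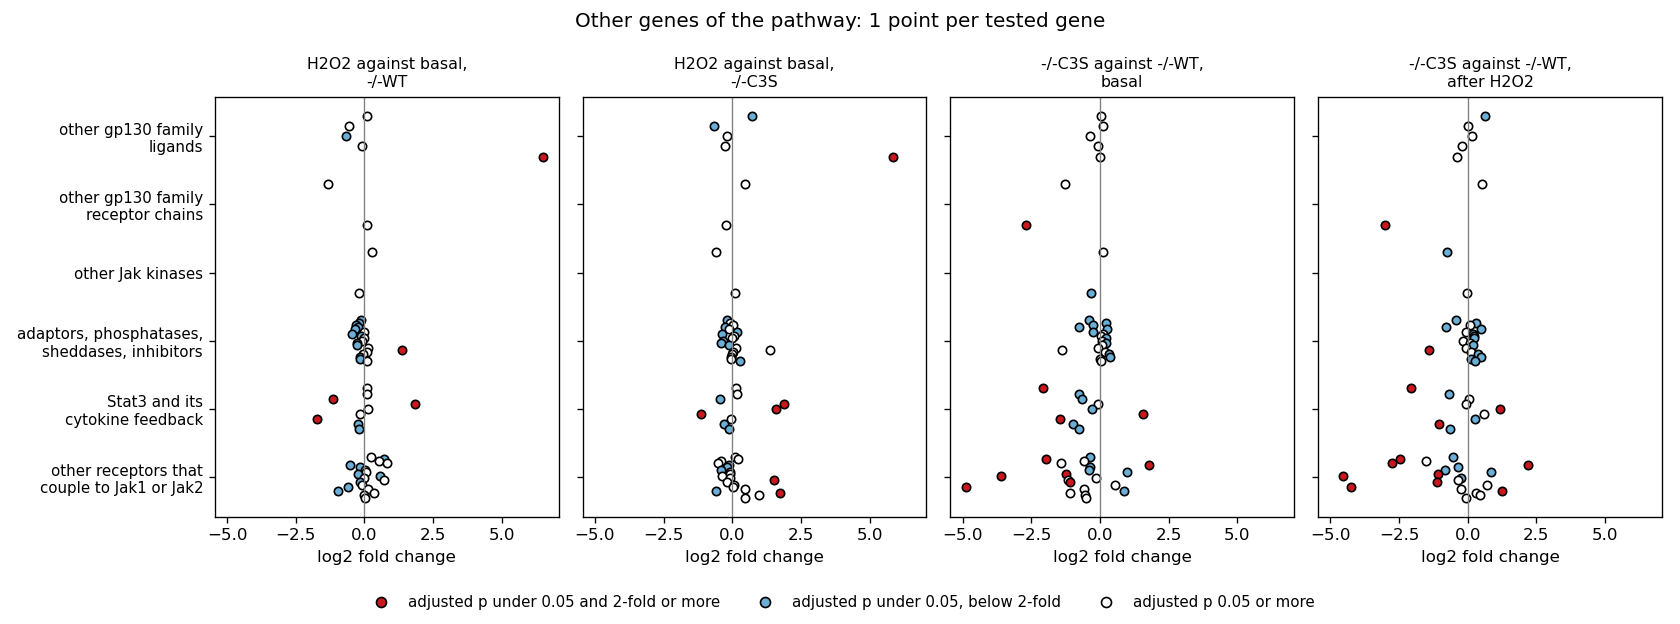
Log2 fold changes of the tested genes of 6 lists of related genes, 1 point per gene, in the 4 comparisons, with the fill of a point showing which thresholds it passed. Peroxide moved few of these genes past 2-fold, Il31 most of all, and more of the other Jak-coupled receptors lie to the left in the comparisons of -/-C3S with -/-WT cells.

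The genes whose pattern over the 8 libraries was most like that of the ligands were taken from 9875 tested genes with a mean of at least 100 normalised counts, by Pearson r of log2 (normalised count + 1). These r values are descriptions over libraries that fall in 4 groups. For Lif they were Kdm6b (r = 0.994), Pnrc1 (0.993) and Arid5a (0.992), and for Il11 they were Mdm2 (0.995), Zbtb2 (0.992) and Pvr (0.992). Mdm2, the ubiquitin ligase known as a target of p53, averaged 2180 in basal -/-WT, 2259 in basal -/-C3S, 3469 in peroxide -/-WT and 5527 in peroxide -/-C3S cells, the same order as Il11. For Il6, on its few counts, they were Decr2 (0.981), Polr2g (0.970) and Zscan12 (0.964).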

How the data were processed

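The 8 libraries (4 groups of 2) were sequenced by the authors as directional single-end reads of 50 bases, trimmed with Scythe and Sickle, aligned to mm10 with TopHat2 2.0.10 and counted over exons from uniquely mapped reads. The deposited values are expected counts, estimates that need not be whole (58.4% of values above 0 were whole within 1e-09). The sources used here do not give the counting program or its use of strand. A further 24 group columns and 8 columns of a scaled sheet were not used. In the table, 27 rows named by dates held 0.28% of counts.

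Counts were rounded, and genes averaging at least 10 in 1 or more groups (13538) were kept. Scaling used size factors (median of ratios, over 8 libraries). Each comparison was fitted on its 4 libraries, and the interaction of line and peroxide on all 8, with edgeR 4.0.16 in R 4.3.3 (robust quasi-likelihood F-test). Benjamini-Hochberg adjustment covered every gene tested. A call needed adjusted p under 0.05 and 2-fold, and SE is the log2 fold change over the square root of F. The fit was tried on simulated counts of a single comparison, with the same spread set for all genes. That trial covered neither the interaction, nor changes near 2-fold, nor changes in genes of low counts. The study calls the libraries of a group biological replicates. Whether each came from its own culture is not stated, so p-values measure the spread between these samples. Columns number replicates and labels letter them, so columns were matched to groups only. The exact intervals of count ratios cover counting error only. The floors allow for counting error in the group at 0 and not in the other group. Intervals of log2 values are from the edgeR fits and use the SE.

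The 10 genes and all lists were chosen with earlier results of these data known. Named genes were the 10, up to 3 called genes of largest change per list and comparison, and the 3 most like each ligand. Alternatives were TMM scaling, no filter, DESeq2 1.42.0, 1 fit of all libraries, a replicate block, each library left out, and adjusted p alone. Protein sequences were not analysed here. Some genes that the rule names or that overlap a member are not reported here.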

Additional observations from a re-analysis of the deposited data

Results flagged for a closer look

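Lif was marked for a closer look because its peroxide response differed between the lines by a test of the difference itself. The rise in -/-C3S cells exceeded that in -/-WT cells by 1.17 on the log2 scale (95% interval 0.89 to 1.46, adjusted p = 1.74e-07, edgeR interaction term), from a lower basal level (120.2 against 294 normalised counts) to a similar level after peroxide (704 against 757). The difference lay between 1.084 and 1.293 when each of the 8 libraries was left out.

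Osmr was marked for the same reason, with a larger fall in -/-C3S cells by -0.42 on the log2 scale (95% interval -0.64 to -0.21, adjusted p = 0.00661, edgeR interaction term). It lay between -0.59 and -0.28 when each library was left out, and the smallest value came without peroxide -/-C3S replicate 1, where adjusted p was 0.107.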

How the results depend on the processing

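With adjusted p alone, 7 genes passed in -/-WT and 7 in -/-C3S cells after peroxide, 8 between the basal lines, 6 between the lines after peroxide and 2 for the interaction, against 2, 2, 1, 2 and 1 by the call rule. Leaving out each library gave 1 to 3 called genes between the lines after peroxide and the original counts elsewhere. The 1 came without peroxide -/-C3S replicate 1, where Osmr lost its call, and the 3 came without replicate 2 of either peroxide group, where Jak1 gained one. DESeq2 called Jak1 there too, and without the filter Il6 was called there. Values that changed sign did so only among those that did not pass: Il11 between the basal lines (-0.15 to 0.36 when a library was left out) and Il6ra in the interaction (-0.22 to 0.064). Of 432 comparisons of a gene with its value under an alternative, 406 kept direction and side of the adjusted p threshold, 17 lost it, 3 gained it and 6 changed sign. The cause was not tested. Replicate numbers did not pair the samples (correlation of deviations -0.01 to 0.03 over 13538 genes), and with the replicate block 2, 2, 1, 2 and 1 genes were called, with no call changed. Over all genes the interaction called 190 with edgeR and 116 with DESeq2. Depth limits Il6 and Osm, read by 0 to 9 counts a library, and 2 libraries a group limit all values.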
